A study of Drosophila montana with 23 samples.

Results

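The genes described here are period (per), cycle (cyc), vrille (vri), clockwork orange (cwo) and cryptochrome (cry), 4 genes of the circadian clock loop and the gene of its blue light receptor, in females of the fly Drosophila montana. They are 5 of the 218 genes measured on the array. Every probe whose name carries the name of a gene was taken as a probe of that gene, which gave 20 probes for per, 4 for cyc, 6 for vri, 14 for cwo and 8 for cry. Each gene was read from its brightest probe, the probe with the highest mean signal over all arrays but replicate c of the 7ND group. The measured differences between groups had no part in the choice of the probe. Its level is the log2 intensity after quantile normalization over the arrays, and levels of different genes, read from different probes, are not set against each other.

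In Drosophila melanogaster, where the roles of these genes are known, the proteins CLOCK and CYCLE bind together and switch on per, timeless (tim), vri and cwo. PERIOD and TIMELESS then enter the nucleus and hold CLOCK and CYCLE back, VRILLE represses the Clk gene and CLOCKWORK ORANGE represses other targets of the loop. CRYPTOCHROME is activated by light and leads to the loss of TIMELESS, which sets the clock to the light cycle, and in northern Drosophila species the day length also decides whether a young female develops ovaries or enters reproductive diapause.

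Levels were measured in whole females of the isofemale strain 175OJ8 on a custom array hybridized with 1 Cy3-labelled sample, and each of the 23 samples was the pooled RNA of 2 females. All females, those of 150ND after their first 10 days, lived in a climate chamber that followed the day length and temperature of northern Finland. Its winter was kept in constant darkness and at a constant low temperature. Non-diapausing females sampled at 7 days (7ND, 2 arrays) and 50 days (50ND, 3 arrays) entered the chamber in the long days of July and had ovaries in early and full yolk formation, and 150ND females (3 arrays) had spent the start of adult life in conditions that inhibit diapause and were sampled in winter with full ovaries. Diapausing females entered in the short days of late August and were sampled, with 3 arrays each, at 7 days (7D, initiation of diapause), 50 days (50D, maintenance), 150 days (150D, winter), 220 days (220D) and 250 days (250D). The 220D females were taken 10 days after winter with ovaries still undeveloped, and the 250D females 30 days after winter with mature ovaries, so that diapause had ended in them. The 7D and 50D females lived through autumn and the 7ND and 50ND females through summer, so diapause and season cannot be told apart at these ages. The winter and spring females were also older than those of summer and autumn, so age and season cannot be told apart between them. The 220D and 250D females differed in age and in days after winter as well as in their ovaries. The 250D and 150ND females differed in age, season and past diapause. In neither comparison can these be told apart. In D. melanogaster the RNA of per, vri and cry rises and falls over the day, and the hour at which these females were collected is not given in the sources used here. All values are from 1 strain and from whole flies, in which fewer cells of a type and less RNA per cell cannot be told apart.

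The array 7ND replicate c stood apart from the other 22. Its median intensity was 530.0, against 19.4 to 49.7 on the others, 98.5% of its spots were well above background against 59.5% to 90.1%, and 3764 of its spots carried an outlier flag against 69 to 234. The fit of its spike-in controls to their known amounts had an R2 of 0.660, against 0.991 to 0.998. There was only 1 other 7ND array, and results against 7ND are given with and without it. Each of the 3 slides held 1 array of every group, except that the third held none of 7ND. The brightest probes of the 5 genes were well above background on all 23 arrays, and on the 22 arrays other than 7ND replicate c so were all 13 photoreceptor markers, both muscle markers, all 4 ovary markers and 5 of 8 neuron markers. Of the 3 gut markers listed 2 were measured, Jon25Bi and ninaD. The probe of ninaD was well above background on 19 of the 22 arrays, which limits its folds.

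The level of per, the repressor of the loop, is read here from its brightest probe. It was highest in diapausing females from 50 days through winter to the first days after it. It was lowest in 250D and in young non-diapausing females. The log2 level of per was 5.44 and 5.91 on the 7ND arrays (replicates a and c, the order used throughout), 5.45, 5.36 and 5.62 on the 50ND arrays and 6.88, 6.80 and 7.25 on the 150ND arrays. It was 6.72, 6.26 and 6.62 on the 7D arrays, 7.86, 7.96 and 7.88 on the 50D arrays and 8.09, 8.07 and 8.18 on the 150D arrays. The 220D arrays stood at 7.93, 8.02 and 8.46 and the 250D arrays at 4.71, 5.05 and 5.97. At each age that had both states the diapausing arrays lay above the non-diapausing arrays with no overlap. Ordered by group mean, per was highest in 220D (8.14 ± 0.28, SD, n = 3), followed by 150D (8.11 ± 0.06, n = 3), 50D (7.90 ± 0.06, n = 3), 150ND (6.97 ± 0.24, n = 3), 7D (6.53 ± 0.24, n = 3), 7ND (5.67 ± 0.33, n = 2), 50ND (5.48 ± 0.13, n = 3) and 250D (5.24 ± 0.65, n = 3). The ranges of 220D and 150D overlapped, as did those of 7ND and 50ND and of 50ND and 250D, while the other 4 neighbours in this order did not. Without 7ND replicate c the 7ND mean of per was 5.27 (1 array), between 50ND (5.31) and 250D (5.07).

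**Figure D1:**
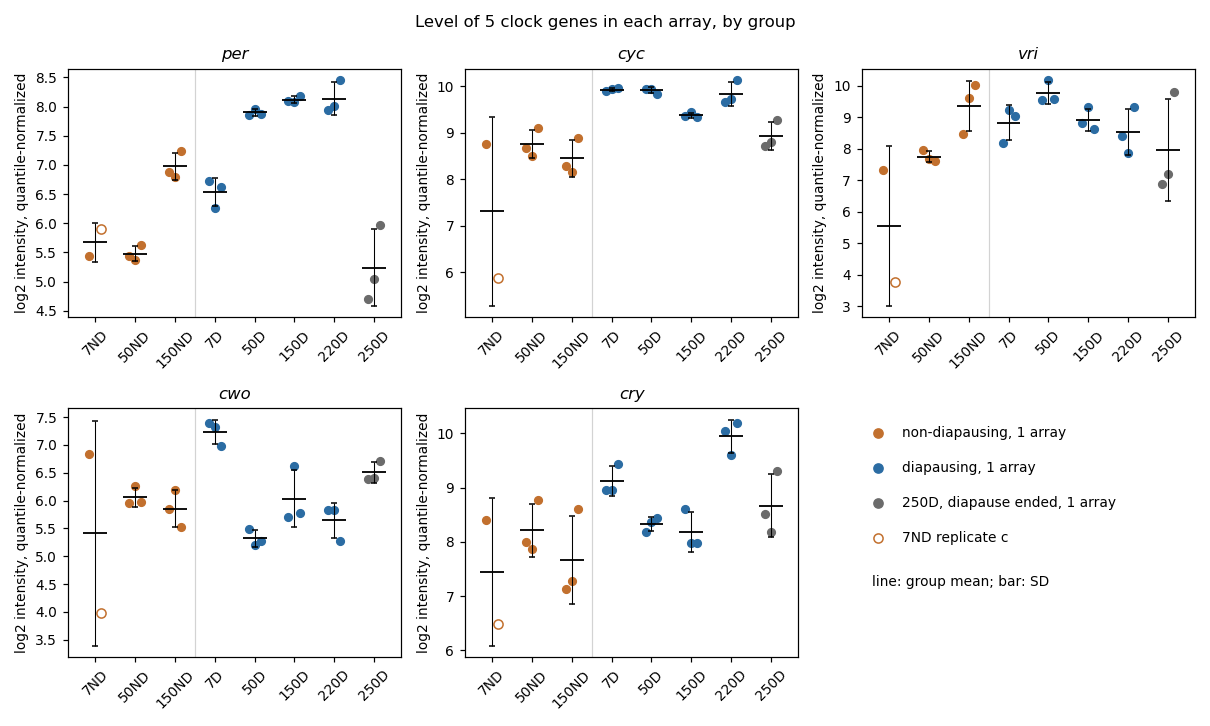
Quantile-normalized log2 intensity (y axis) of per, cyc, vri, cwo and cry on each of the 23 arrays, by group (x axis), with the group mean as a line and the SD as a bar. In per the 50D, 150D and 220D arrays all lie above 7.8 and the 250D arrays below 6.0, and in cyc, vri, cwo and cry the open point of 7ND replicate c lies below every other array.

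In 50D females per was 5.35-fold higher than in 50ND females (log2 2.42 ± 0.27, SE, limma adjusted p = 4.67e-06), and the differences within the 3 slides were 2.41, 2.60 and 2.25. In this comparison 8 of 13 photoreceptor markers were also higher and 3 of 4 ovary markers lower. Both gut markers (Jon25Bi -2.71, ninaD -1.62) were lower too, as was Adh (-2.72), listed for fat body or carbohydrate metabolism, and their part was not tested. In 150D females it was 2.20-fold higher than in 150ND females (log2 1.14 ± 0.27, adjusted p = 0.00946), with differences within slides of 0.94, 1.21 and 1.27. There 3 of 4 ovary markers were lower and 1 of 2 muscle markers (Mhc 1.15) and 1 of 2 gut markers (ninaD 1.96) higher, and their part was not tested. At 7 days it was 1.81-fold higher in 7D than in 7ND females (log2 0.86 ± 0.30, adjusted p = 0.0275). A gene was called where the adjusted p was under 0.05 and the change at least 2-fold, so this difference was not called. Leaving out 7ND replicate c made it 2.18-fold (log2 1.12 ± 0.36, adjusted p = 0.0186, 1 array of 7ND), and it was called. With 7ND replicate c included, the 7-day difference turned negative with no normalization, with spike-in scaling and with the second brightest probe. With 7ND from replicate a alone, that probe stood at 6.58 in 7D and 5.46 in 7ND.

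Among diapausing females per was 2.58-fold higher in 50D than in 7D (log2 1.37 ± 0.27, adjusted p = 0.000736), higher within each of the 3 slides by 1.14 to 1.70. In the same step both muscle markers (Mhc -2.04, sls -3.25), both gut markers (Jon25Bi -3.27, ninaD -4.72), Adh (-3.42) and 2 of 13 photoreceptor markers were lower and 2 of 4 ovary markers higher, and their part was not tested. Read from its brightest probe, per had group means of 7.90, 8.11 and 8.14 in 50D, 150D and 220D. Neither step passed the limma test (adjusted p = 0.795 and 0.973), while 5 dimmer probes rose more from 50D to 150D. From 220D to 250D, between the undeveloped and the mature ovary after winter, per fell by 2.89 on the log2 scale (SE 0.27, adjusted p = 5.84e-07), a 7.43-fold difference and the largest of the 5 genes in the comparisons made here without 7ND. Within the slides it was -2.97, -2.49 and -3.23. Beside it 7 of 13 photoreceptor markers and 1 of 2 muscle markers (Mhc -1.35) were lower, while 2 of 4 ovary markers, both gut markers (Jon25Bi 3.11, ninaD 2.09) and Adh (3.26) were higher, and their part was not tested. The other older group with mature ovaries was 150ND. On the brightest probe 250D females had 3.32-fold less per than 150ND females (log2 -1.73 ± 0.27, limma adjusted p = 0.000103). Not all per probes were lower in 250D. Both gut markers and Adh (6.68) were higher in 250D, and their part was not tested.

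Non-diapausing females also differed in per between ages. It was 2.82-fold higher in 150ND than in 50ND females (log2 1.50 ± 0.27, adjusted p = 0.000763), by 1.80, 1.51 and 1.18 within slides, while 50ND and 7ND females overlapped (means of 5.48 and 5.67). Among non-diapausing females per was thus highest in the 150ND group, sampled in winter. These females differed from 50ND females in age and in the conditions at the start of adult life as well as in season. Both gut markers and Adh (-5.77) were lower in 150ND than in 50ND, and the part of these cell types was not tested.

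The level of cyc, whose protein is the partner of CLOCK, was higher on every array of females in diapause than on any other array. Its log2 level was 8.75 and 5.87 on the 7ND arrays, 8.66, 8.51 and 9.10 on the 50ND arrays and 8.29, 8.16 and 8.89 on the 150ND arrays. It was 9.90, 9.94 and 9.96 on the 7D arrays, 9.95, 9.95 and 9.84 on the 50D arrays and 9.35, 9.44 and 9.34 on the 150D arrays. The 220D arrays stood at 9.67, 9.72 and 10.14 and the 250D arrays at 8.73, 8.80 and 9.28. The 12 arrays of 7D, 50D, 150D and 220D thus lay above all 11 others, those of 250D females among them. In order of the means, 7D (9.93), 50D (9.91) and 220D (9.84) overlapped in turn, 150D (9.38) lay apart from both its neighbours, and 250D (8.94), 50ND (8.76), 150ND (8.45) and 7ND (7.31) overlapped in turn. Without 7ND replicate c the 7ND mean of cyc was 8.67 (1 array), between 50ND (8.68) and 150ND (8.36).

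In 7D females cyc was 6.15-fold higher than in 7ND females (log2 2.62 ± 0.50, adjusted p = 0.000900), and without 7ND replicate c 2.31-fold higher (log2 1.21 ± 0.30, adjusted p = 0.00530). With no normalization between arrays the first of these was -0.10. At 50 days it was 2.23-fold higher in diapause (log2 1.16 ± 0.45), which missed the threshold at an adjusted p of 0.0559 and passed it without 7ND replicate c (log2 1.19 ± 0.21, adjusted p = 0.000237). The standard error of cyc between groups of 3 arrays, which the fit shares over all groups, was 0.45 with that array and 0.21 without it. At 150 days cyc differed by 0.93 (SE 0.45, adjusted p = 0.198), with no overlap between the groups. Leaving out 150ND replicate c together with 7ND replicate c gave 1.18 (SE 0.20, adjusted p = 0.000142), which was called. From 220D to 250D the mean of cyc went from 9.84 to 8.94 with no overlap, a difference that was not called (adjusted p = 0.151, and 0.00163 but under 2-fold without 7ND replicate c).

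Clk, the gene of CYCLE's partner, and tim, the gene of PERIOD's partner, were read in the same way, and the probe of tim was well above background on 20 of the 22 arrays. The mean log2 level of Clk was 6.52 in 7D, 6.03 in 50ND, 6.31 in 50D, 6.48 in 150ND, 6.86 in 150D, 6.23 in 220D and 7.10 in 250D, and it was called in no comparison between these groups. In 7D against 7ND it was called at 1.63 (SE 0.52, adjusted p = 0.0171) and stood at 0.18 without 7ND replicate c (adjusted p = 0.672). The mean of tim was 4.49 in 50ND and 5.74 in 50D (difference 1.25 ± 0.50, adjusted p = 0.0615), and it was called there without 7ND replicate c (1.28, adjusted p = 0.0386). It was 5.42 in 7D, 3.82 in 150ND, where 1 of 3 arrays was well above background, 4.49 in 150D, 4.90 in 220D and 4.33 in 250D, and no comparison between these groups called it.

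The level of vri, the gene of the repressor of Clk, rose at 50 days of diapause against 50ND females, at the edge of the threshold and with a wide spread in several groups. Its log2 level was 7.33 and 3.76 on the 7ND arrays, 7.95, 7.68 and 7.61 on the 50ND arrays and 8.47, 9.59 and 10.02 on the 150ND arrays. It was 8.18, 9.22 and 9.05 on the 7D arrays, 9.55, 10.18 and 9.57 on the 50D arrays and 8.81, 9.31 and 8.61 on the 150D arrays. The 220D arrays stood at 8.40, 7.85 and 9.32 and the 250D arrays at 6.87, 7.19 and 9.80. In order of the means, from 50D (9.77) over 150ND (9.36), 150D (8.91), 7D (8.82), 220D (8.52), 250D (7.95) and 50ND (7.75) to 7ND (5.54), only the last neighbours did not overlap. Without 7ND replicate c the 7ND mean of vri was 7.21 (1 array), still below that of 50ND (7.64). The spread within groups was wider than in per, with SDs of 0.80 in 150ND, 0.74 in 220D and 1.61 in 250D, where the 2 lower arrays lay below 7.2 and replicate c at 9.80.

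In 50D females vri was 4.05-fold higher than in 50ND females (log2 2.02 ± 0.76, adjusted p = 0.0496), and the groups did not overlap. Within slides the difference was 1.61, 2.50 and 1.96. This call stood at the threshold: of the 23 fits that each left out 1 array, it was kept only in those without 7ND replicate a, 7ND replicate c, 250D replicate a or 250D replicate c, with adjusted p from 0.00832 to 0.152 and differences from 1.80 to 2.12. It was also lost with the slide as a block (adjusted p = 0.0667), with the replicate letter as a block (0.0585) and with spike-in scaling (0.0581). At 7 days vri was called at 3.27 (SE 0.85, adjusted p = 0.00541) and stood at 1.52 without 7ND replicate c (SE 0.84, adjusted p = 0.134). At 150 days the groups overlapped (means of 8.91 in 150D and 9.36 in 150ND), as did 220D and 250D. This holds for the brightest probe, from which vri is read here, and 4 dimmer probes differed from it in 150D. The mean of vri was 9.36 in 150ND and 7.75 in 50ND females with no overlap, a difference of 1.62 that was not called (adjusted p = 0.225, and 0.0563 without 7ND replicate c).

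The level of cwo, the gene of another repressor in the loop, was highest in 7D and lower in 50D, read from its brightest probe. It was also high on 7ND replicate a. Its log2 level was 6.83 and 3.98 on the 7ND arrays, 5.96, 6.26 and 5.97 on the 50ND arrays and 5.85, 6.19 and 5.53 on the 150ND arrays. It was 7.39, 7.32 and 6.98 on the 7D arrays, 5.49, 5.19 and 5.27 on the 50D arrays and 5.70, 6.62 and 5.77 on the 150D arrays. The 220D arrays stood at 5.83, 5.82 and 5.28 and the 250D arrays at 6.39, 6.40 and 6.72. The 7D arrays were thus the highest of all, 7ND replicate a came next, and the 50D arrays lay below those of 50ND females. In order of the means, 7D (7.23), 250D (6.50) and 50ND (6.06) did not overlap with each other, and 50ND, 150D (6.03), 150ND (5.86), 220D (5.64), 7ND (5.41) and 50D (5.32) overlapped in turn. Without 7ND replicate c, 7ND (6.70, 1 array) lay between 7D (7.11) and 250D (6.37).

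From 7D to 50D cwo fell by 1.91 on the log2 scale (SE 0.46, adjusted p = 0.00393), a 3.76-fold difference in the direction opposite to that of per, with values of -1.90, -2.13 and -1.71 within slides. As given beside per, both muscle markers, both gut markers and Adh fell in the same step, by 2.04 to 4.72 on the log2 scale, and their part was not tested. Read from the second brightest cwo probe, whose values follow another pattern, this comparison gave 0.46. In 7D against 7ND females cwo was called at 1.82 (SE 0.52, adjusted p = 0.00906). It stood at 0.41 without 7ND replicate c. With that array included, its direction turned under spike-in scaling, under no normalization and when the probes were averaged. At 50 days the means were 5.32 in 50D and 6.06 in 50ND females with no overlap (adjusted p = 0.234), and from 220D to 250D they were 5.64 and 6.50 with no overlap (adjusted p = 0.179). Leaving out 7ND replicate c put both adjusted p under the threshold (0.0156 and 0.00655) with differences under 2-fold.

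The level of cry, the gene of the blue light receptor, was highest in 220D females. Its log2 level was 8.41 and 6.49 on the 7ND arrays, 8.00, 7.87 and 8.76 on the 50ND arrays and 7.13, 7.28 and 8.60 on the 150ND arrays. It was 8.96, 8.96 and 9.44 on the 7D arrays, 8.18, 8.37 and 8.44 on the 50D arrays and 8.60, 7.97 and 7.98 on the 150D arrays. The 220D arrays stood at 10.04, 9.60 and 10.19 and the 250D arrays at 8.51, 8.19 and 9.31. The 220D arrays were the highest of all and overlapped with no other group. The other 7 groups, in order of the means 7D (9.12), 250D (8.67), 50D (8.33), 50ND (8.21), 150D (8.18), 150ND (7.67) and 7ND (7.45), each overlapped with the next.

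From 150D to 220D cry was 3.38-fold higher (log2 1.76 ± 0.45, adjusted p = 0.0243), by 1.62, 1.58 and 2.07 within slides, while 3 of 13 photoreceptor markers and Adh (2.94) were higher, whose part was not tested. The call was lost without 150D replicate b, 150D replicate c, 220D replicate a or 220D replicate c, with differences over all fits that left out 1 array of 1.63 to 1.96 and adjusted p of up to 0.0980. From 220D to 250D it fell by 1.27 (SE 0.45, adjusted p = 0.0459), a 2.42-fold difference. This call was near the threshold too and was kept in 7 of the 23 fits that left out 1 array, those without 7ND replicate a or c, 50ND replicate c, 150ND replicate a, b or c, or 250D replicate c (differences of -1.59 to -1.03, adjusted p of 0.00673 to 0.174). With the slide as a block it was lost (adjusted p = 0.0609), as it was with no normalization, spike-in scaling and averaged probes. At 50 days the groups overlapped, with means of 8.33 and 8.21 in 50D and 50ND. At 7 days cry was called at 1.67 (SE 0.50, adjusted p = 0.0119) and stood at 0.73 without 7ND replicate c (adjusted p = 0.233). With 7ND replicate c included, the 7-day direction of cry turned with no normalization and with the second brightest probe. With 7ND from replicate a alone, that probe stood at 9.05 in 7D and 8.48 in 7ND.

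The array 150ND replicate c had the highest value of its group in 4 of the 5 genes, and 8.60 of cry against 7.13 and 7.28. With it and 7ND replicate c left out, an alternative added after the data were seen, cry was called at 1.01 in 150D over 150ND (adjusted p = 0.0187), at -1.03 in 150ND against 50ND (adjusted p = 0.0347) and at 1.50 in 250D over 150ND (adjusted p = 0.00194). With all arrays these were 0.51, -0.54 and 0.997 and were not called (adjusted p = 0.545, 0.643 and 0.209). The call of per in 150D over 150ND females also rested on this group: without 150ND replicate a or b it had an adjusted p of up to 0.0547, and of 11 other settings of the processing 5 kept it.

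Counted over the comparisons, 4 of the 5 genes (cyc, vri, cwo and cry) were higher in 7D than in 7ND females, against 25.7% of the 218 genes called higher there. With 7ND replicate c left out they were per and cyc, 2 of 5, against 16.5%. In 50D against 50ND females per and vri were higher, 2 of 5, against 17.9%, and without that array per, cyc and vri, 3 of 5, against 22.5%. In 150D against 150ND only per was higher, 1 of 5, against 5.5% (6.88% without that array), and with 150ND replicate c left out too per, cyc and cry, 3 of 5, against 13.3%. No gene of the 5 was called lower in diapausing than in non-diapausing females of the same age, where 13.8%, 10.6% and 4.59% of all genes were.

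Along diapause, 1 of 5 genes was higher (per, against 11.5% of all genes) and 1 lower (cwo, against 10.6%) from 7D to 50D. None of the 5 was called from 50D to 150D by limma, nor had an unadjusted p under 0.05 with all arrays, where 2.29% of all genes were higher and 4.59% lower. Without 7ND replicate c cwo (0.73, adjusted p = 0.0467) and cyc (-0.55, adjusted p = 0.0851) had unadjusted p under 0.05 there, both under 2-fold. From 150D to 220D 1 of 5 was higher (cry, against 3.67%) and none lower, where 1.38% were. From 220D to 250D 2 of 5 were lower (per and cry, against 13.3%) and none higher, where 8.72% were. The same members were called in these 4 steps without 7ND replicate c. All genes were then higher and lower in 15.6% and 13.3% from 7D to 50D, 3.21% and 6.42% from 50D to 150D, 5.96% and 3.21% from 150D to 220D, and 13.8% and 18.8% from 220D to 250D. In 50ND against 7ND females cyc and vri were called higher (1.44 and 2.20, adjusted p = 0.0346 and 0.0477), against 27.1% of all genes. Leaving out 7ND replicate c, neither was called (0.0044 and 0.43, adjusted p = 0.998 and 0.948), where 0.0% of all genes were higher and 0.459% lower. In 150ND against 50ND 1 of 5 was higher (per, against 7.34%, or 9.17% without 7ND replicate c), and with 150ND replicate c left out too cry was also lower, against 5.5%. In 250D against 150ND 1 of 5 was lower (per, against 6.42%, or 10.1% without 7ND replicate c), and with 150ND replicate c left out too cry was higher, against 7.34%.

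**Figure D2:**
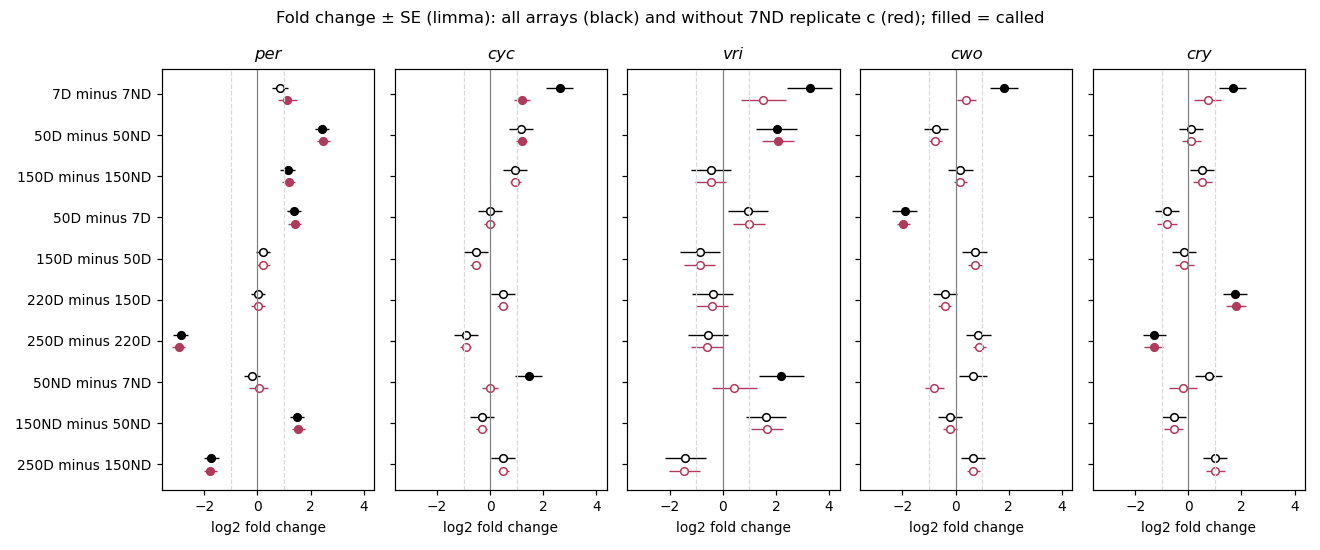
Log2 fold change with its SE (x axis) of per, cyc, vri, cwo and cry in the 10 comparisons between groups (y axis), from all 23 arrays (black) and without 7ND replicate c (red), with filled points for differences that were called. The fall of per from 220D to 250D lies at -2.89, and the points of cyc, vri, cwo and cry in 7D against 7ND move toward 0 without that array.

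All 5 genes differed somewhere among the 8 groups by the F test of the same fit, with adjusted p of 5.11e-08 for per, 0.00158 for cyc, 0.00268 for cry, 0.00698 for vri and 0.0209 for cwo, where 83.5% of the 218 genes did (without 7ND replicate c also 5 of 5, against 92.7%). For cwo this was lost without 7D replicate a or b (adjusted p of up to 0.0712) and when its probes were averaged (adjusted p = 0.893). The change of the diapause effect between ages was tested as an interaction. From 7 to 50 days the effect on per grew by 1.56 (SE 0.41, adjusted p = 0.0250) and that on cwo fell by 2.56 (SE 0.69, adjusted p = 0.0275), 2 of 5 genes against 8.72% of all genes. Both rest on 7ND: without 7ND replicate c the changes were 1.36 and -1.17 and neither was called (adjusted p = 0.0562 and 0.0856), where 9.17% of all genes were. From 50 to 150 days no gene of the 5 was called, against 4.13%. There per stood at -1.28 (SE 0.38, adjusted p = 0.0780), and without 7ND replicate c, which took no part in the contrast itself, at -1.31 (adjusted p = 0.0206), which was called, against 8.72%. With 150ND replicate c left out as well it stood at -1.18 (adjusted p = 0.0535), and the change of per from 7 to 50 days at 1.36 (adjusted p = 0.0377), which was called, against 37 of the 218 genes.

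Probes of 1 gene did not all show the same pattern. The brightest per probe, Dmon_cDNA_per_4FR, was followed by 4 of the 9 other per probes well above background on the 22 arrays, with correlations over these arrays of 0.987 to 0.999 (arrays of all groups, so the value describes the shared pattern). The other 5 had correlations of 0.298 to 0.890. All 10 were higher in 50D than in 50ND (by 0.14 to 2.47) and in 150D than in 150ND (by 0.47 to 1.14) and lower in 250D than in 220D (differences of -3.05 to -0.07), but from 7D to 50D 6 were higher and 4 lower (-0.29 to 1.40). The brightest probe and the 4 that followed it were 2.22 to 2.47 higher in 50D than in 50ND, and 250D minus 220D was -3.05 to -2.07. In the other 5 these differences were 0.14 to 1.34 and -1.56 to -0.07. From 50D to 150D the brightest probe and the 4 that followed it were 0.02 to 0.24 higher, and the other 5 were 0.62 to 0.93 higher. The brightest and its followers were all lower in 250D than in 150ND. In the other 5, from the brightest down, the means in 250D were 6.69, 5.82, 5.58, 5.52 and 4.37. In 150ND they were 6.455, 6.70, 5.55, 5.55 and 5.98, so not all of them were lower in 250D.

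For cyc and vri the only other probe well above background on the 22 arrays followed the brightest, with correlations of 0.983 and 0.994, and for cry all 3 others did, at 0.973 to 0.993. The 4 dimmer vri probes, well above background on 9 to 21 of the 22 arrays, showed another pattern, with correlations with the brightest of 0.251 to 0.555. From 50D to 150D they were 1.69 to 1.98 higher, where the brightest was at -0.85, and in 150D over 150ND 1.07 to 1.23 higher, where the brightest was at -0.45. Against 50ND they were 0.35 to 0.81 higher in 50D, where the brightest was at 2.02. The name of the brightest vri probe, Dmon_cDNA_vri_2F, belongs to 1 of these 4 as well. The 4 cry probes were 1.76 to 2.03 higher in 220D than in 150D, and 250D minus 220D was -1.56 to -1.27. For cwo only 1 of the 5 other probes well above background on all 22 followed the brightest, Dmon_rc_cwo_1_1b at 0.992, and the other 4 had correlations of -0.366 to -0.260. From 7D to 50D 2 of the 6 cwo probes were lower and 4 higher (-1.91 to 0.51), so the fall of cwo holds for these 2 probes. The name of the brightest cwo probe, Dmon_cDNA_cwo_1FR, belongs to a pair of probes, and the other of the pair, well above background on 21 of the 22 arrays, had a correlation of -0.486 with it and was 0.97 higher in 50D than in 7D. Many other names also occur as a pair or with and without the prefix rc. Which strand a probe reads is not given in the sources used here, so RNA of the gene and RNA from its opposite strand cannot be told apart.

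**Figure D3:**
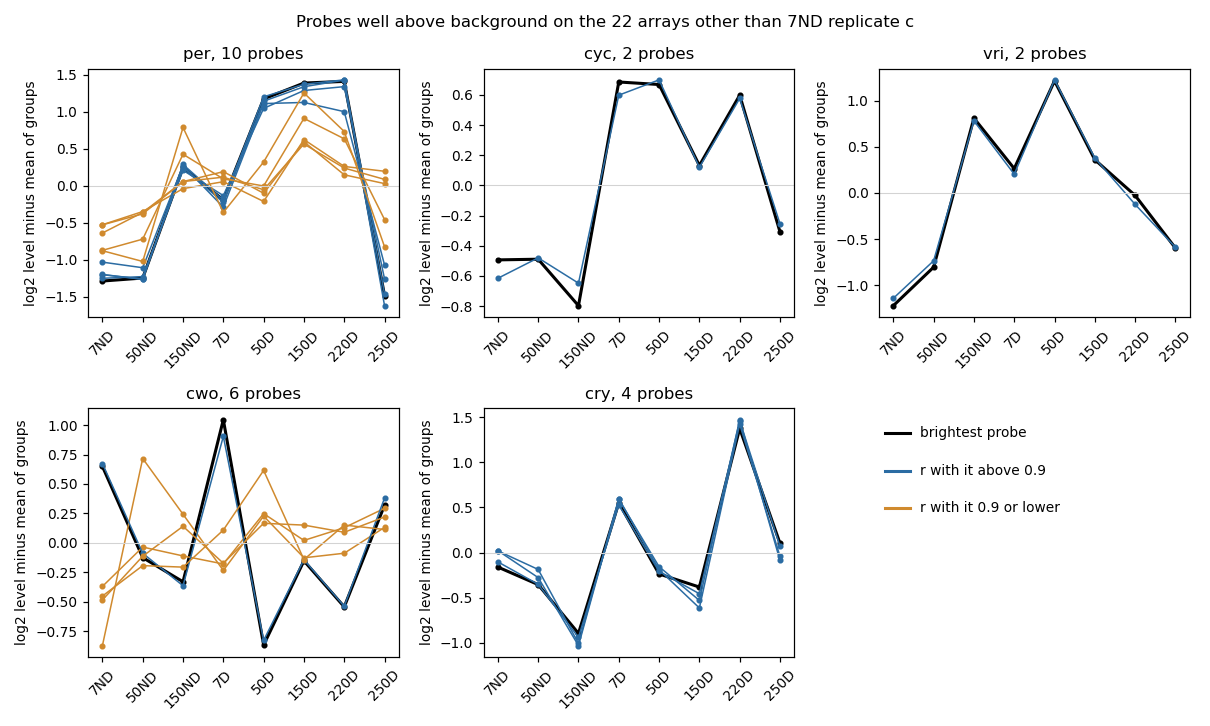
Group means of every probe well above background on the 22 arrays other than 7ND replicate c, as log2 level minus the mean of the 8 groups (y axis), by group (x axis), for per, cyc, vri, cwo and cry. The black line is the brightest probe, blue lines correlate with it above 0.9 and orange lines do not, which holds for 5 of 10 per probes and 4 of 6 cwo probes.

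The genes whose 8 group means were most like those of a clock gene, by Pearson correlation over the 8 groups, were Hsr_omega (0.945), Fst (0.938) and for (0.937) for per, and inaF (0.964), Mpk2 (0.939) and Gr66A (0.927) for cyc. For vri they were serT (0.959), Sdc (0.944) and jet (0.927), for cwo drl (0.821), Hsp20 (0.749) and sisA (0.746), and for cry rdgB (0.800), Atp-alpha (0.776) and inaF (0.751). With 7ND replicate c left out only 1 of the 3 genes named for per (Hsr_omega), for cyc (inaF) and for vri (serT), and none of those for cwo and cry, was again among the 3. The lists for cwo then held Pka-C1 (0.934), Jon25Bi (0.884) and ninaD (0.862), and that of per was led by shi (0.984).

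The other 17 clock genes on the array are Clk and tim, 7 modifiers of PERIOD and TIMELESS (the kinases dco, CkIIalfa and sgg, the F-box proteins slmb and jet and the phosphatase genes tws and Pp1-87B) and 8 genes of clock input, clock cells and output (lark, na, disco, gl, Slob, Fmr1, CrebB17A and norpA). In 50D against 50ND females 2 of 17 were higher and 2 lower, against 17.9% and 10.6% of all genes, with a median difference over the 17 of 0.16 against 0.13 over all genes. Higher were Slob, the gene of a protein that binds a potassium channel, by 1.36 (adjusted p = 0.00305), and na, the gene of a sodium leak channel of clock neurons. The probe of na was not well above background on any of these 6 arrays, so no fold is given for it. Lower were tws by 1.56 (adjusted p = 0.0142) and Fmr1, the gene of an RNA-binding protein, by 1.01 (adjusted p = 0.0231). Without 7ND replicate c 4 were higher and 3 lower, against 22.5% and 12.8%, with jet (1.45, adjusted p = 1.65e-05) and tim added above and slmb (-1.07, adjusted p = 0.00240) below.

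In 150D against 150ND females none of the 17 was higher and the same tws and Fmr1 were lower (-1.64 and -1.07, adjusted p = 0.0216 and 0.0359), against 4.59%, and without 7ND replicate c also dco (adjusted p = 0.0269), against 9.17%. From 7D to 50D CkIIalfa (1.27, adjusted p = 0.0407), slmb (1.23, adjusted p = 0.0289) and Fmr1 (1.18, adjusted p = 0.00954) were higher, 3 of 17 against 11.5%, and gl, the gene of a transcription factor of photoreceptors, was lower (-1.59, adjusted p = 0.00353), 1 of 17 against 10.6%. None was called from 50D to 150D by limma, where 2 had an unadjusted p under 0.05. From 150D to 220D na alone was higher (adjusted p = 0.00425), 1 of 17 against 3.67%. Its log2 level was 1.66 to 2.14 on the 150D arrays, of which 1 was well above background, and 3.47 to 4.20 on the 220D arrays, of which 2 were. From 220D to 250D tws (1.85, adjusted p = 0.00451) and slmb (1.17, adjusted p = 0.0448) were higher, 2 of 17 against 8.72%, and Slob (-1.63, adjusted p = 0.000639) and na (adjusted p = 0.00123) lower, 2 of 17 against 13.3%. No 250D array was well above background for na, which was at least 1.61-fold higher in 220D when the 250D arrays were set to the lowest signal well above background. Without 7ND replicate c these were 4 and 3, against 13.8% and 18.8%, with lark (1.16, adjusted p = 0.000223) and dco (1.02, adjusted p = 0.0145) added above and jet (-1.34, adjusted p = 3.68e-05) below. In 150ND against 50ND Slob was higher (1.23, adjusted p = 0.0109), 1 of 17 against 7.34%, as was per.

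In 7D against 7ND females 4 of the 17 were higher (jet, norpA, Clk and Slob), against 25.7% of all genes. Lower were 2 (Fmr1 and tws), against 13.8%. With 7ND replicate c left out Slob alone was higher (1.26, adjusted p = 0.0227), 1 of 17 against 16.5%, and 5 were lower, tws (-2.39, adjusted p = 0.00164), Fmr1 (-2.24, adjusted p = 0.00119), slmb (-2.09, adjusted p = 0.000403), dco (-1.77, adjusted p = 0.00760) and lark (-1.08, adjusted p = 0.00871), against 19.3%. In 50ND against 7ND 8 of 17 were called higher with that array, against 27.1% of all genes, and these calls were lost without it. None of the 17 was called by limma in 250D against 150ND, where 1 had an unadjusted p under 0.05, and norpA alone without that array (-1.09, adjusted p = 0.00176).

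**Figure D4:**
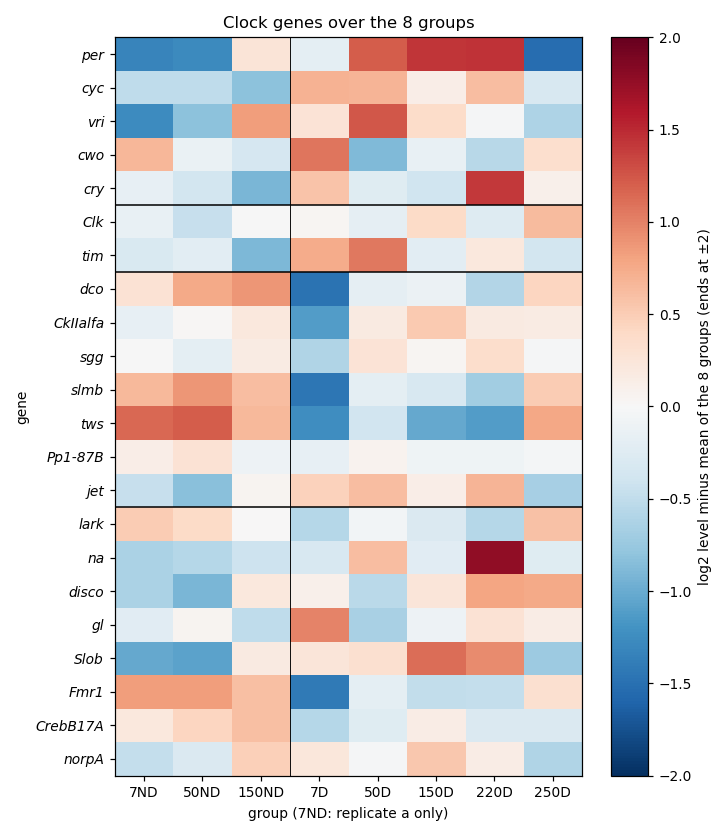
Group mean of the log2 level minus the mean of the 8 groups (colour) for per, cyc, vri, cwo and cry and for the 17 other clock genes (rows, by role), over the 8 groups (columns), with 7ND from replicate a alone. The highest values are those of na (1.78), whose probe was near background, and per (1.45) in 220D, and the lowest is that of per in 250D (-1.52).

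The markers of other cell types named beside the results above had these levels. The mean log2 level of the 13 photoreceptor markers per array was 8.79 to 9.47 in 50ND, 10.19 to 10.45 in 50D, 9.64 to 9.72 in 150D, 10.11 to 10.78 in 220D and 8.93 to 9.68 in 250D, and none of the 13 was called in 150D against 150ND (8.48 to 10.10 in 150ND). In 7D against 7ND females 6 of the 13 were higher, 11 without 7ND replicate c, and all 4 ovary markers lower. The 8 neuron markers showed 2 higher and 1 lower in 50D against 50ND, none in 220D against 150D, and 1 higher and 2 lower in 250D against 220D. The mean of the 4 ovary markers, Hsp26, Hsp83, Fmr1 and tws, was 12.04 to 12.39 in 50ND, 9.70 to 9.93 in 50D, 9.75 to 10.01 in 150D, 10.93 to 12.52 in 150ND, 9.13 to 9.73 in 220D and 11.36 to 11.93 in 250D, and 3 of the 4 were lower in 150D than in 150ND. Of the 4, Fmr1 and tws are also among the 17 clock genes, and Hsp26 and Hsp83 are heat shock genes. Adh is 1 gene and stands for fat body or carbohydrate metabolism, which are not told apart here. The mean of the 2 muscle markers was 13.90 to 14.32 in 7D, 10.57 to 11.62 in 50ND, 10.91 to 12.23 in 50D, 9.60 to 11.38 in 150ND, 11.51 to 12.58 in 150D, 11.37 to 12.28 in 220D and 10.77 to 11.82 in 250D. The mean of the 2 gut markers was 12.44 to 12.79 in 7D, 10.41 to 11.15 in 50ND, 8.23 to 9.21 in 50D, 7.99 to 8.37 in 150ND, 8.86 to 10.80 in 150D, 8.82 to 9.84 in 220D and 11.54 to 12.10 in 250D. The level of Adh was 13.01 to 13.83 in 7D, 12.62 to 13.12 in 50ND, 9.89 to 10.29 in 50D, 6.03 to 8.12 in 150ND, 6.90 to 8.42 in 150D, 9.84 to 11.34 in 220D and 13.50 to 13.95 in 250D. The part of these cell types in the differences of per, cyc, vri, cwo and cry was not tested.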

How the data were processed

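The deposited scanner files hold, per spot, the processed intensity after background subtraction by the Feature Extraction software of the scanner, per the file headers, on a linear scale, and the arrays are not yet normalized to each other. In the deposited table of processed values the authors give 1 quantile-normalized intensity for each probe, made with limma. Its column for 7ND replicate c had a correlation of 0.698 with that array's own scan and lay closer to another.

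The intensity of 14800 gene spots (1850 probes, 8 spots each) was taken to log2 and quantile-normalized over the 23 arrays. The spots of a probe were averaged after outlier-flagged spots had been dropped, except in 43 cases where all 8 were flagged. Of 219 listed genes 218 had a probe, and the brightest probe stood for each. The 8 groups entered 1 linear model (lmFit and eBayes of limma 3.58.1, R 4.3.3), and p-values of each comparison were adjusted over the 218 genes by Benjamini-Hochberg. Calls needed an adjusted p under 0.05 and a change of at least 2-fold, while for interactions and the F test the adjusted p alone decided. The procedure was tested on simulated data. P-values measure the spread between arrays of 2 pooled females each. The number of arrays limits the precision.

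Named genes were the 5 genes, Clk and tim in every comparison, the 3 genes most like each of the 5 over the 8 group means, and up to 4 of the other clock genes with the largest called change per comparison. Without 7ND replicate c a 5th called clock gene is also named. The genes, the lists and the rule were chosen with earlier results of these data known. Alternatives were 75th-percentile scaling, no normalization, scaling on 7 spike-in probes, normexp (offset 50), the authors' table, the second brightest probe, averaged probes, a filter on dim probes, slide or replicate letter as a block, only the groups compared, no minimum fold and each array left out. Leaving out 7ND replicate c and 150ND replicate c together, and the description of every probe, were added after the data were seen. No coordinates or probe sequences were used here. All 5 genes are annotated by symbol in the RefSeq genes of D. montana (assembly ASM3504440v1).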

Additional observations from a re-analysis of the deposited data

Results flagged for a closer look

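The effect of diapause differed between 7 and 50 days in per and in cwo by the interaction test of limma over all 23 arrays. The difference between diapausing and non-diapausing females was 1.56 larger on the log2 scale at 50 than at 7 days for per (adjusted p = 0.0250), and 2.56 smaller for cwo, that is -2.56 (adjusted p = 0.0275). In per the difference was 0.86 at 7 and 2.42 at 50 days, and in cwo 1.82 and -0.74. Without 7ND replicate c the changes were 1.36 and -1.17 (adjusted p = 0.0562 and 0.0856), and neither was called. For per the call was also lost without 7D replicate b, 50ND replicate b or 50D replicate b, and for cwo without 7D replicate a or b, 50ND replicate b or c, or 50D replicate b or c. At both ages season changes with diapause, and the 2 cannot be told apart.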

How the results depend on the processing

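Each of 30 named values was recomputed in up to 35 other ways, 1045 in all. Of these 857 kept the call and any direction, 26 gained the call, 146 lost it and 16 turned. The F tests among the groups are counted here but have no direction, so they could not turn. They are also among the 21 values counted as without 7ND, although they use the 7ND arrays. Of the differences among these 21, only the fall of cwo from 7D to 50D turned, at 0.461 with the second brightest probe. The rest, all against 7ND, were per at -1.80, -0.527 and -0.179 in 7D over 7ND with no normalization, spike-in scaling and the second brightest probe, cyc at -0.0988 and cwo at -1.36 and cry at -0.903 with no normalization, cwo at -0.0862 with spike-in scaling and -0.0682 when its probes were averaged, cry at -0.0559 with the second brightest probe, cyc and vri in 50ND over 7ND at -0.434 and -0.135 with no normalization and -0.230 and -0.122 in the authors' table, and the interaction of cwo at 0.813 with no normalization and 0.130 with the mean of all probes.

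The number of the 5 genes called in 7D over 7ND (4, all higher) was 2 with no normalization, where both (per and cwo) were called lower and no higher call was kept, 2 with the second brightest probe or without both doubted arrays (7ND replicate c and 150ND replicate c), 1 with averaged probes or the authors' table, and 0 with spike-in scaling or the arrays of these groups alone. In 50D over 50ND (2) it was 1 with spike-in scaling, the slide as a block or the replicate block, with vri lost each time. In 150D over 150ND (1) it was 0 with 75th-percentile scaling, no normalization, spike-in scaling, normexp, the mean of all probes or the second brightest probe, and 3 without both doubted arrays. In 50D over 7D (2) it was 1 with normexp and 0 with the mean of all probes or the second brightest probe. In 150D over 50D (0) it was 1 with no normalization or spike-in scaling, and in 220D over 150D (1) 0 with spike-in scaling. In 250D over 220D (2) it was 1 with no normalization, spike-in scaling or the slide as a block, with cry lost each time. In 50ND over 7ND (2) it was 1 with the slide or replicate block and 0 with 75th-percentile scaling, spike-in scaling, normexp, averaged probes, the authors' table, the groups alone or without both doubted arrays. In 150ND over 50ND (1) it was 0 with no normalization, spike-in scaling or normexp and 2 with the mean of all probes, the groups alone or without both doubted arrays. In 250D over 150ND (1) it was 0 with no normalization or normexp and 2 with the authors' table or without both doubted arrays. For the interaction from 50 to 150 days (0) it was 1 with the authors' table or the replicate block and 2 with the groups alone, and from 7 to 50 days (2) it was 0 with spike-in scaling and 1 with 75th-percentile scaling, the mean of all probes, the second brightest probe, the groups alone or without both doubted arrays. The cause of these changes was not tested.

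Leaving out 1 array gave 2 to 4 genes in 7D over 7ND, 1 to 3 in 50D over 50ND, 0 to 1 in 150D over 150ND and 220D over 150D, 1 to 2 in 250D over 220D and 250D over 150ND, 0 to 4 in 50ND over 7ND, 0 to 1 and 0 to 5 for the interactions and 4 to 5 for any difference among groups. The calls of per in 50D over 50ND and in 250D over 220D were kept in all 23 fits without 1 array and in 11 of 11 other settings. Calls on adjusted p alone added per in 7D over 7ND (5 genes). Spike-in scaling moved the median difference of all genes by -0.87 to 0.52 in the comparisons without 7ND, no normalization by -0.43 to 0.87, and the other scalings by at most 0.15. Of 77 pairs of same-lettered arrays 38 had a correlation over 0.1. Of 23 arrays 15 were nearest to one with their own letter and 5 to one of their own slide. The counts to be had if letter and slide played no part were not computed, so these counts do not settle whether same-lettered arrays vary together. The letters were not used as pairs in the main fit, and the letter as a block was an alternative. With 2 or 3 arrays a group, small differences cannot be seen.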

Other observations

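Over the 8 group means the levels of per and vri had a Pearson correlation of 0.645, those of cyc and vri 0.777 and those of cyc and cry 0.758, while those of per and cwo had -0.328. Without 7ND replicate c these were 0.762, 0.448, 0.664 and -0.623. The groups share slides and strain, and the values describe these 8 means only. In 250D females replicate c held the highest of the 3 values in all 5 genes, and also the highest mean of the photoreceptor (9.68 against 9.18 and 8.93) and neuron markers (6.17 against 5.62 and 5.79). In 150ND females replicate c held the highest value in 4 of 5 genes and the highest mean of the photoreceptor markers (10.10 against 9.60 and 8.48). The ovary markers went the other way, with the lowest mean of the group on replicate c in 150ND (10.93 against 12.17 and 12.52) and in 250D (11.36 against 11.91 and 11.93).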
